A study of Mus musculus with 12 samples.

Results

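Inhibitory checkpoint receptors are surface proteins that restrain T cells. The 10 genes described here were chosen by name: *Pdcd1*, *Havcr2*, *Lag3*, *Tigit*, *Ctla4*, *Cd160*, *Btla*, *Entpd1*, *Vsir*, and *Cd96*, of 31053 genes in the deposited matrices. The choice applied no threshold to a measured value, but it was made with earlier results of these data known. Their levels and their co-detection in single cells were measured in T cells of PyMT breast tumors, and their levels also in the CD11c-selected myeloid cells of such tumors.

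All mice carried a transgene in which the MMTV promoter drives polyoma middle T antigen in the mammary epithelium, which gives breast tumors spontaneously, so all tumors studied were driven by 1 oncogene. The wild-type groups had normal PAR2, protease-activated receptor 2, and the PAR2 G37I mutant groups carried a knock-in PAR2 that is resistant to signaling by coagulation factor Xa. No mouse had an added treatment. They were adults, and the methods give an age for the PyMT mice in general, when tumors had reached the largest approved size, but not for each sample. Each genotype gave 3 samples of CD11c-selected cells, from late-stage tumors, and 3 samples of CD4/CD8-selected T cells, from mid-size tumors, described as independent biological replicates. Cells were isolated with magnetic beads, frozen, thawed, and run on the 10x Genomics platform, which tags each captured mRNA with a unique molecular identifier (UMI). The 6 samples of each cell type stand in 1 matrix whose barcodes name no sample. Each matrix was therefore treated as 1 sample: genotypes could not be compared, the values carry no error between mice, and p-values are not given. The barcodes run through the alphabet 6 times, and these 6 barcode runs, linked to no sample or genotype, describe how far a value varied within a matrix.

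PD-1 (*Pdcd1*) carries tyrosine motifs that recruit the phosphatase SHP-2 (*Ptpn11*) once PD-L1 (*Cd274*) or PD-L2 (*Pdcd1lg2*) binds. CTLA-4 (*Ctla4*) competes with the costimulator CD28 for CD80 and CD86, LAG-3 (*Lag3*) binds MHC class II, and TIM-3 (*Havcr2*) binds ligands such as galectin-9, CEACAM1, and HMGB1. TIGIT (*Tigit*) and CD96 (*Cd96*) share the ligand CD155 (*Pvr*) with the activating receptor CD226. BTLA (*Btla*) and CD160 (*Cd160*) both bind HVEM (*Tnfrsf14*). CD39 (*Entpd1*) degrades extracellular ATP, and VISTA (*Vsir*) is an inhibitory receptor and ligand that is abundant on myeloid cells. T cells exposed to antigen for a long time in tumors are known to carry several of these receptors at once, a state that depends on the transcription factor TOX, whereas TCF1 (*Tcf7*) marks their progenitors.

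The genes lie on 7 chromosomes of GRCm38 (GENCODE M21), and all are protein coding. *Pdcd1* spans chr1:94038305-94052553 on the minus strand and *Ctla4* chr1:60887000-60915832 on the plus strand. *Havcr2* lies at chr11:46454935-46481255 (plus), *Lag3* at chr6:124904361-124911705 (minus), *Cd160* at chr3:96798763-96829351 (minus), *Entpd1* at chr19:40612366-40741602 (plus), and *Vsir* at chr10:60346851-60372684 (plus). Chromosome 16 holds *Tigit* (chr16:43648867-43664146, minus), *Btla* (chr16:45224315-45257670, plus), and *Cd96* (chr16:46035657-46120251, minus).

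The 250 bases before the RefSeq start (GRCm38.p6) are printed for 4 genes whose detection is compared below, since *Havcr2* and *Ctla4* were detected more often, and *Btla* less often, in CD8 cells that had *Pdcd1*. They run 5′ to 3′ on the gene's strand. Capitals mark the NFAT core GGAAA, or TTTCC on the other strand, a sequence recognised by a factor that T cell receptor signaling activates.
Pdcd1 (chr1:94052554-94052803, minus): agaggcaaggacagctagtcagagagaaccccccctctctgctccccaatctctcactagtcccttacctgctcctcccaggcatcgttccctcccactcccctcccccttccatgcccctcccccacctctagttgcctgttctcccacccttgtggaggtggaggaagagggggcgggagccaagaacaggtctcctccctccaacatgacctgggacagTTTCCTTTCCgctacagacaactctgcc
Havcr2 (chr11:46454681-46454930, plus): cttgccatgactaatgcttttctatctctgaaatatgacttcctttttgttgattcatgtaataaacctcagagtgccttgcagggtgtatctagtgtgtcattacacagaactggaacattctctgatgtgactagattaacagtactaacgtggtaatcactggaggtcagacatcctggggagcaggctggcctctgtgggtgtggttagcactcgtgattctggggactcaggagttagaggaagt
Ctla4 (chr1:60908775-60909024, plus): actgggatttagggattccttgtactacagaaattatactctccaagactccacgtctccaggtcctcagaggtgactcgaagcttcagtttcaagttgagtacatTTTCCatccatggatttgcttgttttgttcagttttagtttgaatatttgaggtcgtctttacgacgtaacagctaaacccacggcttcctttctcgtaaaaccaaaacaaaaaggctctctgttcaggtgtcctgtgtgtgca
Btla (chr16:45224087-45224336, plus): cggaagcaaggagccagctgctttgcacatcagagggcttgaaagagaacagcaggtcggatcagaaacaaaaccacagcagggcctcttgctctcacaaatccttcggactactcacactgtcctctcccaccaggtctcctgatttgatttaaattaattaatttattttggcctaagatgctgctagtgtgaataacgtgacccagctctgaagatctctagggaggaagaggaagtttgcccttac
The core occurred 2 times before *Pdcd1*, 1 time before *Ctla4*, and 0 times before *Havcr2* and *Btla*, and 55.6% of 32851 RefSeq promoters of this length held it. The AP-1 letters TGANTCA, found in 6.75% of promoters, occurred 1 time before *Havcr2*, and the RUNX letters TGTGGT, found in 14.05% on either strand, 1 time each before *Havcr2* and *Btla*. The TCF/LEF letters CTTTGA, in 13.8% of promoters, were in none of these 4. These are matches of letters and not binding sites. The *Ctla4* window lies inside the span that GENCODE gives the gene, and that of *Btla* overlaps its first bases. The table held 9 of the 10 genes. Of those not printed, *Tigit* had 2 core matches and *Cd96* 4, *Vsir* had none, and both *Cd160* and *Entpd1* have 2 start sites in the table.

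The T cell matrix held 22806 cells after 295 barcodes with under 200 genes were left out, with 16203038 to 30168668 UMIs per run and a median of 4361 UMIs per cell. Among all 23101 barcodes before that filter, 51 occurred more than once. Classes were set by UMIs in a cell. CD8 cells had *Cd8a* without *Cd4* (15454 cells), conventional CD4 cells had *Cd4* without *Cd8a*, *Foxp3*, or *Trdc* (661 cells), Foxp3 cells had *Foxp3* without *Cd8a* (115 cells), and Trdc cells had *Trdc* without any of these (43 cells), each of the last 3 with a CD3 transcript. Markers that the gates did not use went with the names: *Cd8b1* stood at 730 CPM (UMIs per 1000000 UMIs of the class) in CD8 cells and 28.6 CPM in conventional CD4 cells, *Cd40lg* at 1.10 and 63.9 CPM, and *Il2ra* at 469 CPM in Foxp3 cells and 8.25 CPM in CD8 cells. The Trdc label held less well, with 37.7 CPM of *Tcrg-C1* and 222 CPM of *Cd8b1*. Its cells also carried epithelial RNA, with *Krt8* at 1998 CPM (69.2 in CD8 cells) and 3669 CPM over 3 epithelial markers with a value, against 210 in CD8 cells. By the clusters described below, 415 of the 661 conventional CD4 cells (62.8%) lay in the CD4 T cell-like cluster. Another 154 lay in CD8 T cell-like, 39 in macrophage-like, and 33 in regulatory T cell-like clusters. Conventional CD4 cells were few in most runs (406 in run 1, and 23 to 128 in the others) and carried macrophage RNA. All 12 macrophage markers were higher in them than in CD8 cells, at 16142 CPM in sum (2554 to 66716 over runs) against 1121 (27.3 to 5636). Foxp3 cells had 4076 CPM in sum (11 of 12 higher), but 150 and 154 CPM in the 2 runs that gave a run value. Those were runs 1 and 4, with 41 and 43 of the 115 cells, so most of the summed value came from the fewer cells of the other runs. Trdc cells had 49.0 CPM, with 7 of the 12, among them *C1qa*, *Csf1r*, and *Adgre1*, at 0. Of the 43 Trdc cells 17 lay in run 2, and Trdc values are given with and without that run where it decides them.

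*Pdcd1*, the gene of PD-1, stood at 249 CPM in CD8 cells (95% confidence interval, CI, 246 to 252), at 289, 189, 254, 327, 328, and 179 CPM in runs 1 to 6. These exact Poisson intervals cover counting error only. Runs 2 and 6 were low and runs 4 and 5 high, so the runs differed by far more than counting error. Foxp3 cells held 292 CPM (CI, 252 to 336), Trdc cells 132 CPM (CI, 91.9 to 184, but 11 without run 2), and conventional CD4 cells 97.5 CPM (CI, 87.6 to 108, and runs 68.9, 54.0, 30.1, 219, 150, and 161). CD8 and Foxp3 cells did not differ beyond the spread of the runs. The conventional CD4 value was below the CD8 value in each of the 6 runs, narrowly in run 6.

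*Ctla4*, whose product takes CD80 and CD86 from CD28, had another order. It stood at 1089 CPM in Foxp3 cells (CI, 1011 to 1170; 1138 and 1425 in the 2 runs with at least 20 such cells), 190 CPM in conventional CD4 cells (CI, 176 to 205, and runs 192, 159, 39.5, 311, 231, and 151), 105 CPM in CD8 cells (CI, 103 to 107, and runs 113, 111, 159, 94.7, 97.3, and 69.9), and 52.8 CPM in Trdc cells (CI, 28.9 to 88.6, but 5.50 without run 2). Foxp3 cells stood apart from every run of the other classes. Conventional CD4 and CD8 cells overlapped over runs.

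*Lag3*, the MHC class II receptor, was at 45.7 CPM in CD8 cells (CI, 44.3 to 47.2), but at 42.8, 39.7, 96.6, 58.4, 34.0, and 20.8 CPM in the runs, a wide range with run 3 on top, and at 36.7 CPM without run 3. It was at 19.8 CPM in conventional CD4 cells (runs, 11.7, 64.1, 11.3, 25.2, 29.9, and 21.5), 22.6 CPM in Trdc cells (0 without run 2), and 10.4 CPM in Foxp3 cells. *Havcr2*, the gene of TIM-3, was at 10.7 CPM in CD8 cells (CI, 10.0 to 11.4, and runs 10.5, 12.2, 19.3, 14.2, 8.86, and 3.79), 16.4 CPM in Foxp3 cells, 7.54 CPM in Trdc cells (0 without run 2), and 26.7 CPM in conventional CD4 cells (runs, 9.99, 111, 45.2, 13.3, 51.3, and 10.8). The last value went with the macrophage RNA described above. In the 596 conventional CD4 cells with no UMI of *C1qa*, *C1qb*, *C1qc*, *Csf1r*, or *Adgre1*, *Havcr2* was at 9.74 CPM. *Tigit* was sparse, at 4.69 CPM in CD8 cells (CI, 4.25 to 5.16), 8.93 CPM in Foxp3 cells (CI, 3.28 to 19.5), and 3.03 CPM in conventional CD4 cells, with 0 UMIs in Trdc cells, which allows up to 11.3 CPM.

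*Cd160*, a receptor of HVEM, was highest in CD8 cells, with 54.8 CPM (CI, 53.2 to 56.3, and runs 42.7, 76.7, 51.6, 33.5, 46.2, and 65.5) against 22.6 CPM in Trdc cells, 4.41 CPM in conventional CD4 cells (CI, 2.52 to 7.16; at most 7.77 in a run), and 1 UMI in Foxp3 cells. Every run of CD8 cells lay above every run of conventional CD4 cells. *Btla*, the other receptor of HVEM, went the other way, with 8.40 CPM in CD8 cells (CI, 7.80 to 9.02, and runs 5.30, 9.02, 7.18, 7.53, 7.04, and 12.1), 16.2 CPM in conventional CD4 cells (CI, 12.4 to 20.96, and runs 11.1, 10.1, 3.76, 39.98, 25.7, and 10.8), 18.9 CPM in Trdc cells on 5 UMIs, and 7.45 CPM in Foxp3 cells. *Cd96*, which binds CD155, was at 70.4 CPM in CD8 cells (CI, 68.6 to 72.1, and 51.8 to 79.8 over runs), 52.8 CPM in Trdc cells, 39.4 CPM in conventional CD4 cells (9.41 to 77.0), and 31.3 CPM in Foxp3 cells.

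*Vsir* and *Entpd1* had the narrowest range over the classes. *Vsir* stood at 65.9 CPM in CD8 cells (runs, 51.2, 66.5, 95.6, 63.9, 65.8, and 58.9), 78.2 CPM in conventional CD4 cells (53.8 to 132), 74.5 CPM in Foxp3 cells, and 45.2 CPM in Trdc cells, and *Entpd1*, the gene of CD39, at 24.2 CPM in CD8 cells (runs, 20.1, 22.6, 30.2, 34.3, 30.5, and 16.2), 30.02 CPM in conventional CD4 cells (10.8 to 105), 14.9 CPM in Foxp3 cells, and 15.1 CPM in Trdc cells (0 without run 2). Without the conventional CD4 cells that had macrophage UMIs, *Vsir* was at 59.6 CPM and *Entpd1* at 11.6 CPM there. Over the 10 genes, barcode run 6 was lowest in CD8 cells for *Pdcd1*, *Havcr2*, *Lag3*, *Tigit*, *Ctla4*, and *Entpd1* and highest for *Btla*, whereas run 3 was highest for *Havcr2*, *Lag3*, *Ctla4*, and *Vsir*.

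**Figure D1:**
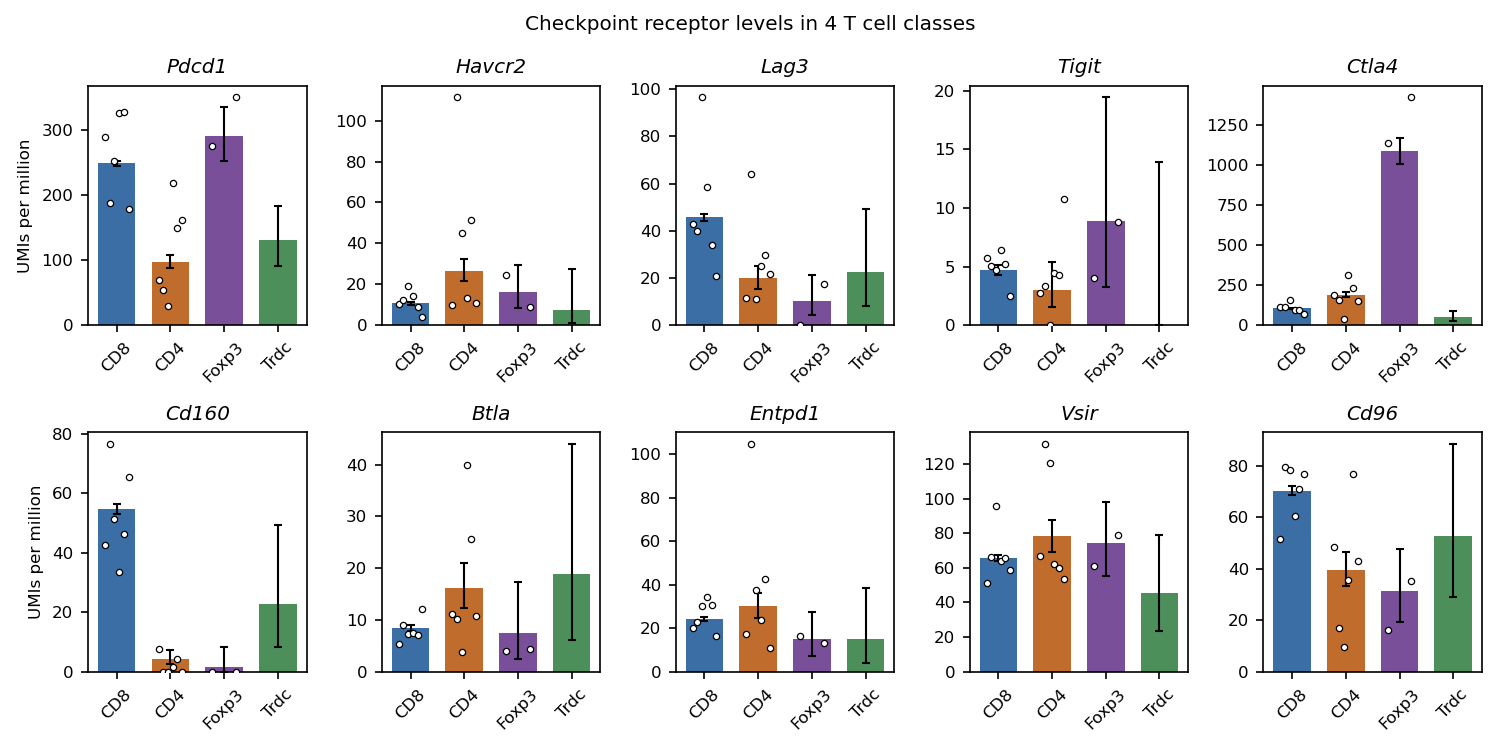
Level of each receptor gene in CD8, conventional CD4, Foxp3, and Trdc cells in CPM (linear axes from 0, own scale per gene). Bars are the summed level, error bars its exact 95% Poisson interval, and white points the barcode runs with at least 20 cells of the class. *Ctla4* reaches 1089 in Foxp3 cells, and *Cd160* is 54.8 in CD8 and 4.41 in conventional CD4 cells.

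Between CD8 and conventional CD4 cells, 3 of the 9 genes that reached 5 CPM over both classes were at least 2-fold higher in CD8 cells, where 2.85% of 8582 genes were, and 1 was at least 2-fold lower, where 6.15% were. With 1 sample these are counts and not tests. CD8 cells held most UMIs of both classes together and so mostly set which genes reached 5 CPM. *Cd160*, at 4.41 CPM in conventional CD4 cells, reached it only through CD8 cells, so its place in the count was not independent of the call. *Cd160* was 11.7-fold higher (log2, 3.55), *Pdcd1* 2.55-fold (log2, 1.35), and *Lag3* 2.27-fold (log2, 1.19), the last above conventional CD4 cells in 4 of 6 runs by the levels above. Run 1 held 406 of the 661 conventional CD4 cells, and without it *Pdcd1* (log2, 0.93) and *Lag3* (0.71) were under 2-fold, as was *Lag3* without run 3 (0.76). *Cd160* ranged from 3.30 without run 2 to 5.13 without run 1. The lower gene was *Havcr2* (log2, −1.33), which was −0.91 without run 2 and −2.02 without run 1. It was −0.12 without the cells with macrophage UMIs and turned to 0.83 over cells in T cell-like clusters. *Entpd1* likewise went from −0.32 to 0.96 and *Vsir* from −0.25 to 0.07 without the macrophage UMIs, and *Pdcd1* kept 1.08 and *Cd160* 3.22. *Ctla4* (log2, −0.86) was lower in CD8 cells in 5 of 6 runs and *Btla* (log2, −0.98) in 4 of 6 by the levels above. Without those cells they were at −1.19 and −1.21, and *Ctla4* also reached −1.19 without run 3. *Btla* was −0.39 without run 4 and passed 2-fold without run 1 (−1.27), run 2 (−1.05), run 3 (−1.12), or run 6 (−1.21). *Cd96* was 0.83 higher. The median log2 difference was −0.25 over the 9 genes and 0.02 over all genes.

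Foxp3 cells had 5.72 times the *Ctla4* (log2, 2.52) and 3.00 times the *Pdcd1* (log2, 1.59) of conventional CD4 cells, each higher in both runs with enough cells, and 2 of 8 genes were at least 2-fold higher where 7.23% of 8940 genes were. None of the 8 was at least 2-fold lower (9.25% of all genes). Trdc cells against CD8 cells had *Btla* at least 2-fold higher (12.6% of 8545 genes), on 5 UMIs, and *Cd160* at least 2-fold lower (4.34%), on 6 UMIs. Neither call held without 1 run. Without run 6 *Btla* was at 8.81 CPM in Trdc and 7.18 CPM in CD8 cells, and without run 2 *Cd160* was at 33.0 and 50.3 CPM. The epithelial RNA of the Trdc cells stands beside these values. An alternative left out cells with macrophage or epithelial genes and the 5% with most UMIs, which kept 27 Trdc cells. There *Btla* was at 30.8 CPM in Trdc and 8.75 CPM in CD8 cells, and *Cd160* at 23.1 and 54.5 CPM. Since it dropped other cells too, the part of the epithelial RNA by itself was not tested.

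To ask which receptors were found in the same cells, each cell was thinned at random to 2000 UMIs, so that deep cells do not make genes coincide, which left 14278 CD8 cells and left out 1176 shallower ones. At that depth *Pdcd1* was detected in 34.5% of CD8 cells, *Ctla4* in 17.9%, *Cd96* in 12.8%, *Vsir* in 12.2%, *Lag3* in 9.34%, *Cd160* in 9.12%, *Entpd1* in 5.15%, *Havcr2* in 1.99%, *Btla* in 1.60%, and *Tigit* in 1.01%. As a background, epithelial cell-like cells of the same matrix, which should lack these genes, had *Vsir* in 3.09%, *Entpd1* in 1.54%, *Pdcd1* in 0.386%, and *Tigit* in 0.386% (CI, 0.00977 to 2.13) of 259 cells thinned alike. The *Tigit* share rests there on 1 cell. *Tigit* was in 0 of 1002 thinned macrophage-like cells, which allows up to 0.299%, and at full depth at 0.115 CPM in epithelial cell-like and 0.203 CPM in macrophage-like cells against 4.69 CPM in CD8 cells. A CD8 cell without a UMI at this depth may still express the gene. Co-detection was given as an odds ratio within runs, pooled by the Mantel-Haenszel method. An odds ratio of 1 means that 2 genes met as often as their frequencies give.

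Of the 45 pairs, 32 had an odds ratio above 1, and the median was 1.19. A ratio somewhat above 1 was usual, since the median log2 ratio over all genes compared was above 0 for 8 of the 10 receptors, at 0.11 with *Pdcd1*, 0.09 with *Havcr2*, and 0.08 with *Lag3*. Over the other receptor genes as frequent as those, it was 0.63, 0.60, and 0.45. The pairs formed a core around *Pdcd1*. *Pdcd1* with *Havcr2* had the highest ratio, 2.37 (1.36 to 4.79 over the 6 runs), with *Havcr2* in 3.27% of cells that had *Pdcd1* (CI, 2.79 to 3.80) and 1.32% of the others (CI, 1.09 to 1.57). *Pdcd1* with *Lag3* had 2.34 (1.66 to 3.41), as *Lag3* was in 14.9% of cells with *Pdcd1* and 6.42% of the others, and 733 cells had both where 493 were expected within runs. *Pdcd1* with *Ctla4* had 1.92 (1.42 to 2.69; 24.8% against 14.3%), and *Pdcd1* with *Entpd1* 1.88 (1.48 to 2.33; 7.51% against 3.90%). All 4 pairs were above 1 in each run. *Pdcd1* was also above 1 in every run with *Cd96* (1.27) and *Vsir* (1.23), and in 4 of 6 with *Tigit* (1.45).

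The partners of *Pdcd1* also met each other. *Havcr2* with *Ctla4* had 1.87, above 1 in 5 runs, *Havcr2* with *Lag3* 1.80 and *Lag3* with *Ctla4* 1.68, both in 6 runs, and *Lag3* with *Entpd1* 1.54 in 5. Both receptors of HVEM stood outside this core. *Cd160* had 1.00 with *Pdcd1* (0.69 to 1.40) and 1.00 with *Lag3*, and its highest ratio was 1.18, with *Cd96*. *Btla* had 0.56 with *Pdcd1* (0.26 to 0.86, below 1 in all 6 runs), with both in 50 cells where 74.9 were expected. It had 0.59 with *Lag3*, on 12 cells with both and above 1 in 2 of 6 runs (0.18 to 1.42), and 0.76 with *Ctla4*. Of all 45 pairs, only *Btla* with *Pdcd1* was below 1 in all 6 runs. The extreme ratios of sparse pairs moved with the thinning. *Btla* with *Entpd1* (0.43) rested on 5 cells and was 0.86 under another seed. *Tigit* with *Entpd1* (2.15) rested on 15 cells and fell to 0.90 under another seed and 0.44 at 1000 UMIs.

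Against all genes detected in at least 5% of thinned CD8 cells, an odds ratio of 2 or more with *Pdcd1* was rare, with 0.961% of 4371 genes, and 1 of the 6 other receptor genes that were as frequent, *Lag3*, reached it (*Havcr2*, *Btla*, and *Tigit* were under 5% and count only as the first gene of a pair). For *Lag3* it was 0.48% of genes and 1 of 6 receptor genes, for *Havcr2* 0.984% and 1 of 7, and for *Tigit* 1.9% and 1 of 7. With *Ctla4* (0.32%), *Cd160* (0.412%), *Entpd1* (0.435%), *Vsir* (0.252%), *Cd96* (0.435%), and *Btla* (1.14%) no receptor gene reached it. At 0.5 or less, *Btla* had 1 of 7 receptor genes, where 1.92% of genes were, and the other genes had none, where 0.275% of genes were for *Pdcd1*, 1.53% for *Havcr2*, 0.595% for *Lag3*, 2.49% for *Tigit*, 0.252% for *Ctla4*, 0.252% for *Cd160*, 0.389% for *Entpd1*, 0.183% for *Vsir*, and 0.0458% for *Cd96*.

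Part of the co-detection lay between clusters of CD8 cells. When odds ratios were pooled within run and cluster together, *Pdcd1* had 1.52 with *Havcr2*, 1.38 with *Lag3*, 1.37 with *Ctla4*, and 1.40 with *Entpd1*, and 0.80 with *Btla*. Each stayed on its side of 1 and closer to it. Run 3 held most cells of 1 *Lag3*-high cluster described below, and without that run *Pdcd1* had higher ratios, of 2.99 with *Havcr2*, 2.77 with *Lag3*, and 2.12 with *Ctla4*. With cells restricted to CD8 T cell-like clusters the first 2 were 2.48 and 2.28. In 627 conventional CD4 cells *Pdcd1* and *Ctla4* met with a ratio of 2.55, with *Ctla4* in 43.1% of cells that had *Pdcd1* (CI, 33.4 to 53.3) and 19.8% of the others. In 106 Foxp3 cells the ratio was 0.88, with *Ctla4* in 61.8% and 61.1%.

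**Figure D2:**
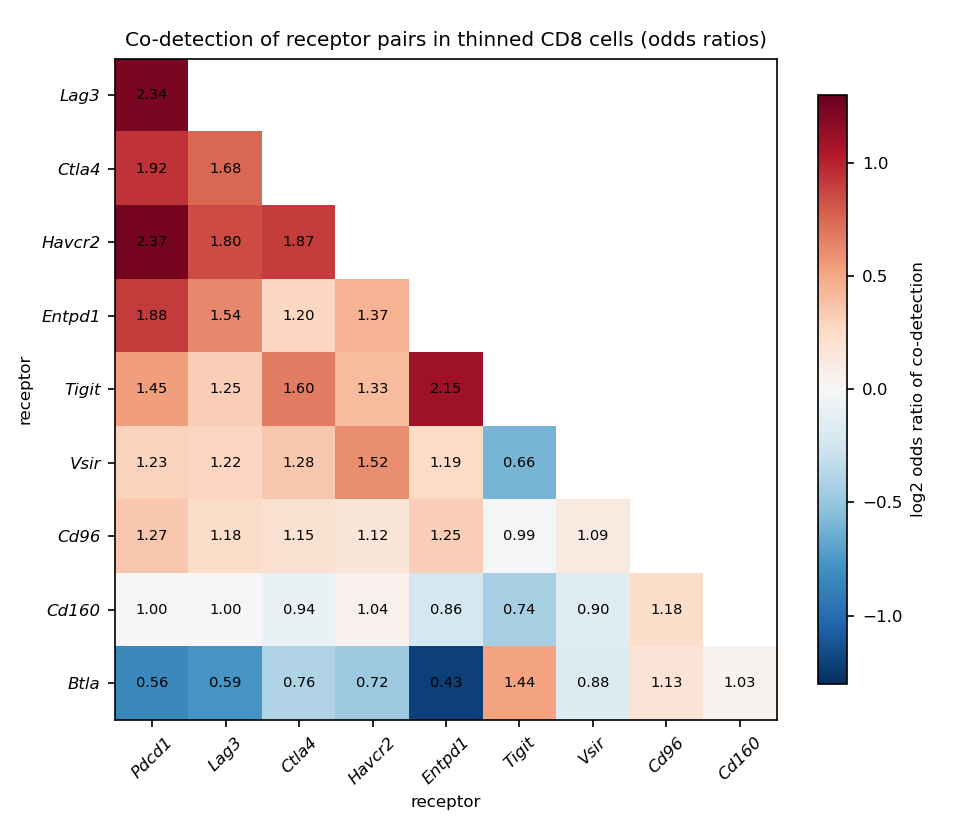
Co-detection of each pair of receptor genes in CD8 cells thinned to 2000 UMIs. Numbers are Mantel-Haenszel odds ratios within barcode runs and colors their log2, red for pairs met more often and blue for pairs met less often than their frequencies give. *Pdcd1* has 2.37 with *Havcr2* and 2.34 with *Lag3*, and *Btla* 0.56 with *Pdcd1*.

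Several receptors in 1 cell were more frequent than independent detection gives, and the excess grew with their number. Of thinned CD8 cells, 35.9% had none of the 10, 29.7% had at least 2 (CI, 28.9 to 30.5; 21.5% to 45.3% over runs) where 28.3% were expected within runs, 9.57% had at least 3 (CI, 9.10 to 10.1; expected, 7.25%), 1.94% had at least 4 (CI, 1.72 to 2.18; expected, 1.20%), and 0.273% had at least 5 (39 cells; expected, 0.130%). The excess was 1.05 times at 2, 1.32 times at 3, and 2.11 times at 5, and the most in 1 cell was 7. The share with at least 2 was 26.7% without run 3 and 32.7% without run 6. Conventional CD4 cells had at least 2 in 18.7% (CI, 15.7 to 21.9; expected, 16.6%), Foxp3 cells in 31.1% (CI, 22.5 to 40.9; expected, 33.4%), and Trdc cells in 10.3%, which is 4 cells.

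Detection of its partners differed most between cells without *Pdcd1* and cells with 1 UMI of it. In CD8 cells with 0, 1, 2, 3, and 4 or more *Pdcd1* UMIs (9353, 2780, 1256, 579, and 310 cells), *Lag3* was detected in 6.42%, 13.5%, 15.4%, 18.3%, and 18.4% of cells. *Ctla4* was in 14.3%, 22.5%, 25.6%, 30.9%, and 30%, and *Entpd1* in 3.90%, 6.76%, 8.12%, 8.98%, and 9.03%. *Havcr2* was in 1.32%, 2.91%, 3.50%, 3.97%, and 4.19%. The step from 0 to 1 UMI exceeded the intervals in each, and the steps above 2 UMIs did not. *Cd160* was flat, at 9.25% without *Pdcd1* and 7.96% to 11.3% with it, and *Btla* was at 1.91% without and 0.478% to 1.38% with it. The factor *Tox* was in 19.6% and then 36.0% to 42.3%, whereas *Tcf7* decreased from 17.03% over 12.7%, 8.36%, and 8.12% to 5.16%. *Cd8a* itself was in 70.4% of cells without *Pdcd1* and up to 86.5% with it, and *Actb* in 99.4% to 99.8% throughout.

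**Figure D3:**
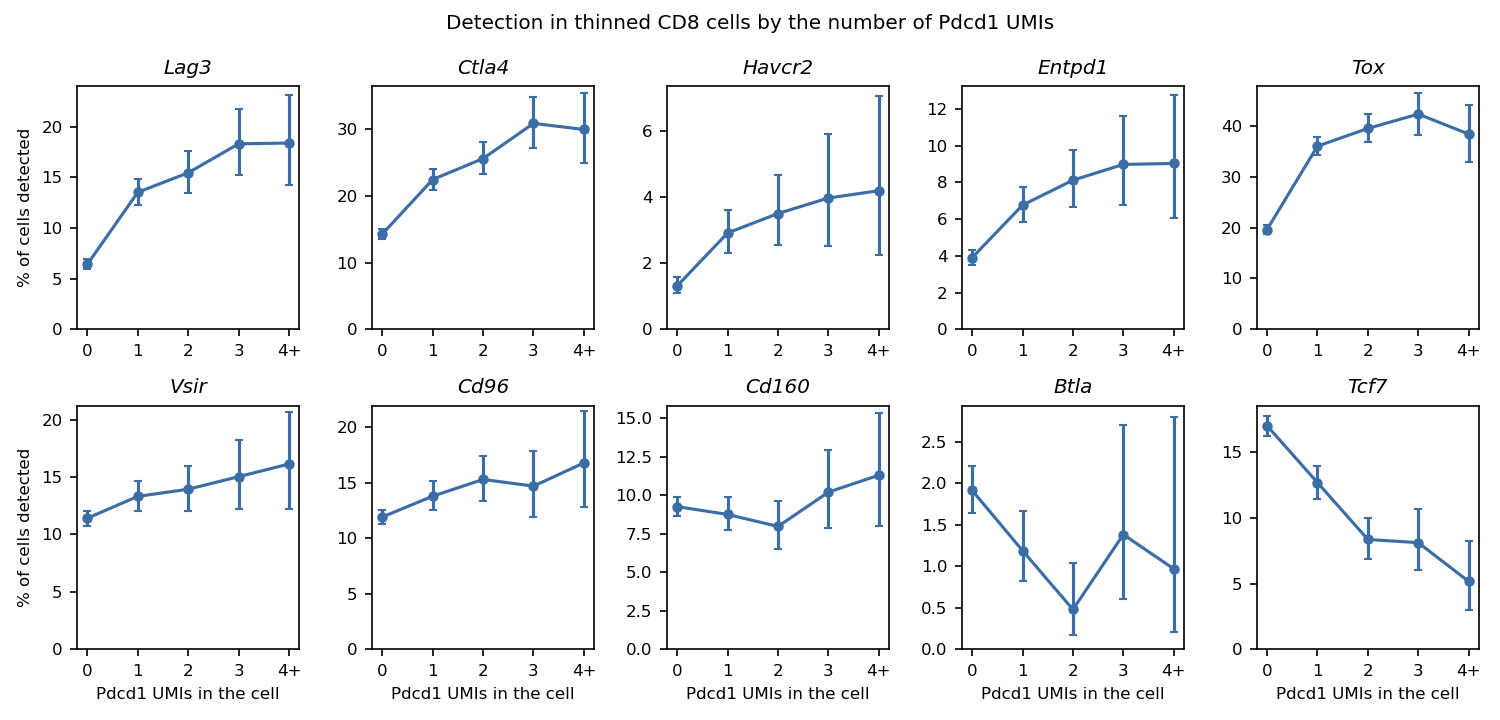
Share of thinned CD8 cells in which a gene was detected, in percent, by the number of *Pdcd1* UMIs in the cell. Points are shares and bars exact 95% Clopper-Pearson intervals (linear axes from 0, own scale per gene). *Lag3* goes from 6.42% at 0 UMIs to 18.4% at 4 or more, and *Tcf7* from 17.03% to 5.16%.

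The genes that met the receptors sorted them by T cell state. Of 24 CD8 state genes, 22 were frequent enough, and with *Pdcd1* 4 had an odds ratio of at least 2 and 4 of 0.5 or less (0.961% and 0.275% of all genes). The highest were the cytotoxic granule gene *Nkg7* (3.68), the chemokine *Ccl5* (2.79), and *Tox* (2.36). The lowest were *S1pr1* (0.39), which lets T cells leave tissue, *Ccr7* (0.29), which guides them to lymph nodes, and *Lef1* (0.26), a partner of TCF1. *Nkg7* was in over 90% of thinned CD8 cells and *Ccl5* in 89.9%, so their ratios rest on the minority of cells without them. *Ccl5* with *Pdcd1* ranged from 0.99 to 4.49 over runs, above 1 in 5 of 6. *Lag3* had the same ends, with *Ccl5* (3.99), *Nkg7* (2.66), and *Tox* (2.07) against *S1pr1* (0.30), *Ccr7* (0.22), and *Lef1* (0.20), so that 4 were at 2 or more and 6 at 0.5 or less. *Havcr2* had *Cxcr6* (2.01), *Nkg7* (1.92), and *Tox* (1.89) on top and *Tcf7* (0.40), *Lef1* (0.36), and *S1pr1* (0.32) at the bottom. *Ctla4* (*Ccl5*, 1.85; *Lef1*, 0.38) and *Entpd1* (*Ccl5*, 1.95; *Ccr7*, 0.27) had lower peaks of the same genes.

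*Cd160* shared *Nkg7* among its highest and *S1pr1* among its lowest genes with *Pdcd1* and *Lag3*, and its other named genes differed. Its highest were *Nkg7* (2.79), the integrin *Itgae* (2.25; 1.58 to 3.27 over runs), which binds epithelial E-cadherin and marks tissue-resident T cells, and *Tnfrsf9* (1.44), and its lowest *Klf2* (0.69), *Il7r* (0.67), and *S1pr1* (0.49). With *Btla*, 8 of 22 genes were above 1, 0 at 2 or more (1.14% of all genes), and 3 at 0.5 or less (1.92%). The median log2 ratio was −0.09 over the list and −0.06 over all genes, so the list as a whole stood near all genes. The interleukin 7 receptor *Il7r* (1.69), *Klf2* (1.60), and *Tcf7* (1.59) led, and *Tox* (0.47), *Gzmb* (0.41), and *Tnfrsf9* (0.30) came last, each of these 3 below 1 in all runs. *Cd96* (*Itgae*, 1.49; *Lef1*, 0.82) and *Vsir* (*Ccl5*, 1.51; *Lef1*, 0.64) varied little over the list. *Tigit* had *Nkg7* (5.14) and *Ccl5* (4.12) on 144 cells in all, with *Ccl5* above 1 in 5 of 6 runs. Both genes were in nearly all cells, as said above, which also limits the ratio of *Nkg7* with *Cd160*.

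Among 20 transcription regulators, of which 16 were frequent enough, *Tox*, *Ikzf2* (Helios), and *Nr4a2*, a target of T cell receptor signals, were highest with *Pdcd1* (2.36, 2.17, and 1.87), and *Tcf7*, *Lef1*, and the chromatin organizer *Satb1* lowest (0.61, 0.26, and 0.19). *Maf* led with *Havcr2* (3.28) and *Entpd1* (2.64) and stood at 0.59 with *Cd160* and 0.39 with *Btla*. *Havcr2* and *Entpd1* were also at 86.1 and 62.0 CPM in macrophage-like cells of this matrix. Whether macrophage RNA had a part in their ratios with *Maf* was not tested. *Satb1* was at 0.13 with *Havcr2*, 0.23 with *Lag3*, and 0.34 with *Ctla4*, each below 1 in all 6 runs, but at 2.13 with *Btla* (1.76 to 2.33, above 1 in all 6).

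Signaling proteins had a narrower range of ratios with *Pdcd1*. Of 14 in the list none reached 2 with any of the 10 receptors. Of all genes, 0.252% (with *Vsir*) to 1.9% (with *Tigit*) did, so a count of 0 is near that share. With *Pdcd1* the highest were *Ptpn22* (1.46), *Sh2d1a* (1.39), and *Ptpn11*, the gene of SHP-2 (1.31), and the lowest *Dgka* (0.90), *Pik3r1* (0.81), and the phosphatase SHP-1 gene *Ptpn6* (0.75). *Havcr2* had 0.33 with *Pag1*. Of 16 rival and partner receptors 8 were frequent enough. The costimulator *Tnfrsf9* (4-1BB) was highest with *Pdcd1* (1.89), *Havcr2* (1.87), and *Lag3* (1.77) and lowest with *Btla*. *Ctla4* met its relatives *Icos* (1.48) and *Cd28* (1.46). *Cd226*, the rival of TIGIT and CD96 for CD155, had 1.98 with *Cd160*, 1.25 with *Cd96*, and 1.15 with *Tigit*. Of 15 ligands 7 were frequent enough in CD8 cells, none at 2 or more (0.252% to 1.9% of all genes). *Cd86* led with *Lag3* (1.85), *Havcr2* (1.81), and *Pdcd1* (1.68). Macrophage-like cells also held *Cd86*, as given below, and the part of macrophage RNA in these ratios was not tested.

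Among all genes found in 5% to 90% of thinned CD8 cells (4261 or 4262 compared), those nearest to *Pdcd1* were *Ccl5* (2.79), *Adgrg1* (2.63), and the T cell receptor gene *Tcrg-C2* (2.44). *Pdcd1* itself was among the 3 nearest to *Havcr2*, after *Maf* and before *Rgs16* (2.34), to *Lag3*, after *Ccl5* and *Cd3g* (2.38), and to *Ctla4*, where it was the first (1.92), before *Trbc2* (1.89) and *Rgs16* (1.88). *Cd160* was nearest to *Itgae*, *Xcl1* (2.07), and *Cd226*, and *Btla* to *Ramp3* (2.70), *Emb* (2.49), and *Cpne3* (2.42). *Entpd1* had *Maf*, *Il10ra* (1.98), and *Ccl5*, *Vsir* *Ccl5*, *Cd38* (1.51), and *Abi3* (1.498), and *Cd96* *Itgae*, *Fam53c* (1.42), and *Itga1* (1.39). *Tigit* had *Ccl5*, *AI837181* (2.39), and *S100a11* (2.32). The upper limit was set after a rule without it had named only genes detected in at least 98.6% of cells.

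Clusters made without the 10 genes gave 10 CD8 T cell-like clusters, numbered here by size over the matrix, whose levels are a description. *Pdcd1* was highest, at 565 CPM, in cluster 2 (3597 cells), led by *Rgs16*, *Adgrg1*, *Pdcd1* itself, and *Tox*, and lowest, at 37.9 CPM, in cluster 3 (2060 cells), led by *Klra7*, *Yes1*, and *Satb1*, a 14.9-fold range. *Havcr2* (23.3 to 0.662 CPM) and *Tigit* (10.1 to 2.59 CPM) had the same highest and lowest cluster. *Lag3* (153 CPM) and *Ctla4* (215 CPM) were highest in cluster 4 (1829 cells) and also lowest in cluster 3 (4.88 and 21.8 CPM). Cluster 4 stands apart, since 85.5% of its cells came from barcode run 3 and the T cell receptor gene *Trav4-4-dv10* led it. Cluster 13 (482 cells), led by *Slamf6* with *Tcf7* among its 10 leading genes, held 415 CPM of *Pdcd1*, 192 CPM of *Ctla4*, and 34.0 CPM of *Lag3*, with *Btla* at 11.3 CPM and the lowest *Entpd1* of the 10 clusters, 4.25 CPM against 51.5 CPM in cluster 2. *Cd160* (137 CPM) and *Cd96* (117 CPM) were highest in cluster 14 (381 cells), led by *Gzma*, *Itgae*, and *Gzmb*, and both lowest in cluster 6 (25.7 and 45.6 CPM), led by *Eomes*, *Ccr2*, and *Gzmk*. *Cd160* was next highest in cluster 3 (81.8 CPM), where *Pdcd1* was lowest. *Btla* was highest in cluster 11 (12.3 CPM), led by *Hspa1a* and *Hspa1b*, and lowest in cluster 2 (2.45 CPM). *Vsir* varied least, from 104 CPM in cluster 4 to 44.7 CPM in cluster 6.

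**Figure D4:**
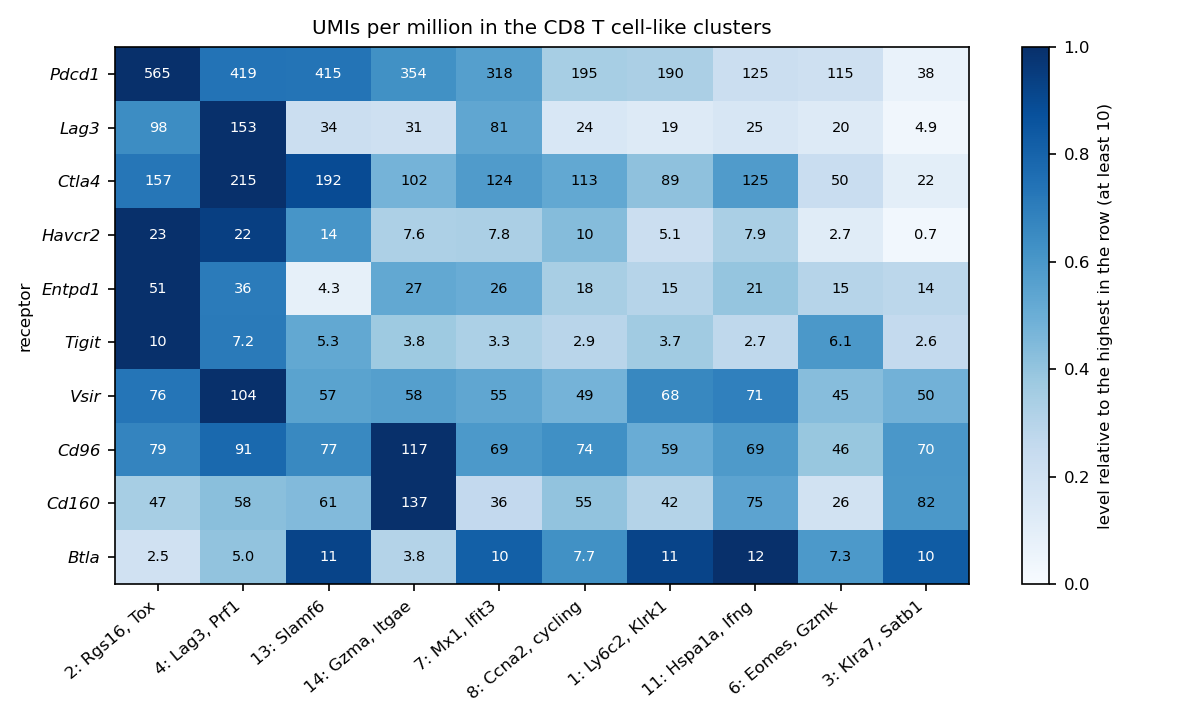
Level of each receptor gene, in CPM (numbers), in the 10 CD8 T cell-like clusters, each named by number and leading genes and ordered by *Pdcd1*. Shading is relative to the highest value in the row, or to 10 where that is higher. *Pdcd1* runs from 565 in cluster 2 to 37.9 in cluster 3, and *Cd160* peaks at 137 in cluster 14.

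In the other T cell clusters of this matrix, the regulatory T cell-like cluster 17 (270 cells) held 864 CPM of *Ctla4* and 376 CPM of *Pdcd1*. The T cell-like cluster 15, led by *Lef1* and *Ccr7*, held 8.34 CPM of *Pdcd1*, 0.490 CPM of *Lag3*, and 0 UMIs of *Havcr2*. Its *Btla* (8.83 CPM), *Cd96* (50.02 CPM), and *Vsir* (55.4 CPM) were within the range of the CD8 T cell-like clusters.

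The CD11c matrix held 11639 cells after 341 barcodes were left out, with 13314063 to 24231244 UMIs per run and a median of 7943 UMIs per cell. Among all 11980 barcodes before that filter, 76 occurred more than once. Run 4 of this matrix stood apart, with 360 cells of a median of 31162 UMIs against 6290 to 9286 in the other runs. Of the 10 receptors, 4 reached 10 CPM in the 6085 cells of 8 macrophage-like clusters. *Vsir* was at 189 CPM (CI, 185 to 192, and runs 203, 194, 206, 178, 185, and 169), *Havcr2* at 107 CPM (CI, 105 to 110, and runs 87.5, 137, 103, 58.7, 108, and 116), *Entpd1* at 97.5 CPM (CI, 95.1 to 99.9, and runs 115, 118, 111, 91.2, 71.8, and 87.7), and *Lag3* at 18.6 CPM (CI, 17.6 to 19.7, and runs 16.5, 24.6, 24.4, 16.6, 13.7, and 16.1). *Havcr2* was 113 CPM without run 4, its lowest. The others were near the floor, with *Pdcd1* at 1.58 CPM, *Btla* at 1.38 CPM, *Ctla4* on 3 UMIs, *Tigit* and *Cd160* on 1 each, and *Cd96* on 0, which allows up to 0.0455 CPM. T cell RNA was low there, with 0.835 CPM of the CD3 and T cell receptor constant genes in sum against 1827 CPM in the 131 T cell-like cells of the same matrix. *Gzmb*, *Eomes*, and *Nkg7* led that T cell-like cluster, and 48.1% of its cells came from run 2. It held 34.3 CPM of *Pdcd1*, against 249 CPM in CD8 cells of the T cell matrix. Against those T cell-like cells, *Havcr2* (log2, 3.23), *Entpd1* (2.39), and *Vsir* (2.00) were higher in macrophage-like cells, each in 3 of 3 runs with enough cells. *Lag3* was lower (−1.43). Of 4 genes tested 3 were thus at least 2-fold higher (20.2% of 8758 genes) and 1 lower (16.2%). These counts depend on the 5 CPM filter over both groups, which the far more numerous macrophage-like cells dominated. It left out *Pdcd1*, *Ctla4* (72.9 CPM in T cell-like cells), *Cd160* (78.6), *Cd96* (70.0), and *Btla* (8.57), all lower in macrophage-like cells. *Tigit*, also left out, had 0 UMIs in T cell-like cells.

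DCs split the receptors further. In 624 cDC1-like cells, which are known for cross-presenting tumor antigen to CD8 T cells, *Btla* was at 212 CPM (CI, 203 to 222, and runs 287, 248, 235, 98.9, 152, and 134), 152-fold above macrophage-like cells (log2, 7.25), with 6.24 as the lowest run, and *Btla* was among their leading genes although it did not enter the clustering. *Havcr2* was also at 212 CPM (runs, 231, 216, 218, 178, 189, and 212), 0.99 higher on the log2 scale and higher in 6 of 6 runs. *Vsir* (39.4 CPM; log2, −2.26), *Entpd1* (37.8 CPM; −1.36), and *Lag3* (10.7 CPM; −0.78) were lower in 6 of 6. Of 5 genes tested 1 was at least 2-fold higher (7.5% of 8749 genes) and 2 lower (18.9%). The higher gene, *Btla*, was at 1.38 CPM in macrophage-like cells and met the 5 CPM filter only through cDC1-like cells. Its count beside that share is therefore no independent support. *Ctla4*, left out by the filter, had 33 UMIs in cDC1-like cells, 3.69 CPM, and 3 UMIs in macrophage-like cells. In 1009 cDC2-like cells *Havcr2* was at 98.5 CPM (50.5 to 167 over runs), *Vsir* at 52.3, *Entpd1* at 40.3, *Btla* at 28.3, and *Lag3* at 21.7 CPM. In 301 migratory DC-like cells *Btla* was at 51.5 CPM, *Vsir* at 20.7, *Havcr2* at 19.2, *Lag3* at 13.9, and *Entpd1* at 7.51 CPM, so *Havcr2* was below both cDC types.

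Neutrophil-like cells (210, with a median of 2516 UMIs) had the most *Entpd1*, 365 CPM (CI, 316 to 420; 251 to 379 in 3 runs), 3.77-fold above macrophage-like cells (log2, 1.91), with *Vsir* at 243 CPM and *Havcr2* at 122 CPM, and *Lag3* on 2 UMIs. Of 4 genes tested 1 was at least 2-fold higher (19.2% of 8725 genes) and 1 lower (17.8%). *Entpd1* was 184 CPM in 45 endothelial cell-like cells, where CD39 is known on vessels. Within macrophages *Havcr2* varied most of these 4, from 191 CPM in cluster 8, led by *Cd207* and *Il1a*, to 13.8 CPM in cluster 2, led by *Lyve1*, whereas *Vsir* was highest in that cluster (278 CPM) and lowest in the cycling cluster 15 (108 CPM). *Entpd1* ran from 161 CPM in cluster 8 to 34.8 CPM in cluster 7, led by *Gpnmb* and *Arg1*, and *Lag3* from 36.5 CPM in cluster 8 to 9.57 CPM in cluster 9, led by *Il10*. In 5356 thinned macrophage-like cells *Havcr2* met *Entpd1* with an odds ratio of 1.35 (1.12 to 1.47 over runs) and *Vsir* with 0.83 (above 1 in 1 run), and *Lag3* met *Havcr2* with 1.301.

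Genes of the ligands were measured in the same cells. Migratory DC-like cells had *Cd274* at 302 CPM, *Pdcd1lg2* at 50.3 CPM, *Cd86* at 389 CPM, *Cd80* at 230 CPM, and *Pvr* at 152 CPM. Macrophage-like cells had *Cd274* at 40.3, *Cd86* at 229, and *Lgals9*, the gene of galectin-9, at 116 CPM, and cDC2-like cells *Cd86* at 372 and *Cd80* at 212 CPM. *Nectin2*, another ligand of TIGIT, and *Ceacam1* were at 99.5 and 193 CPM in epithelial cell-like cells. *Tnfrsf14*, the gene of HVEM and the ligand of both BTLA and CD160, was at most 2.08 CPM in any named or unnamed cluster shown.

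**Figure D5:**
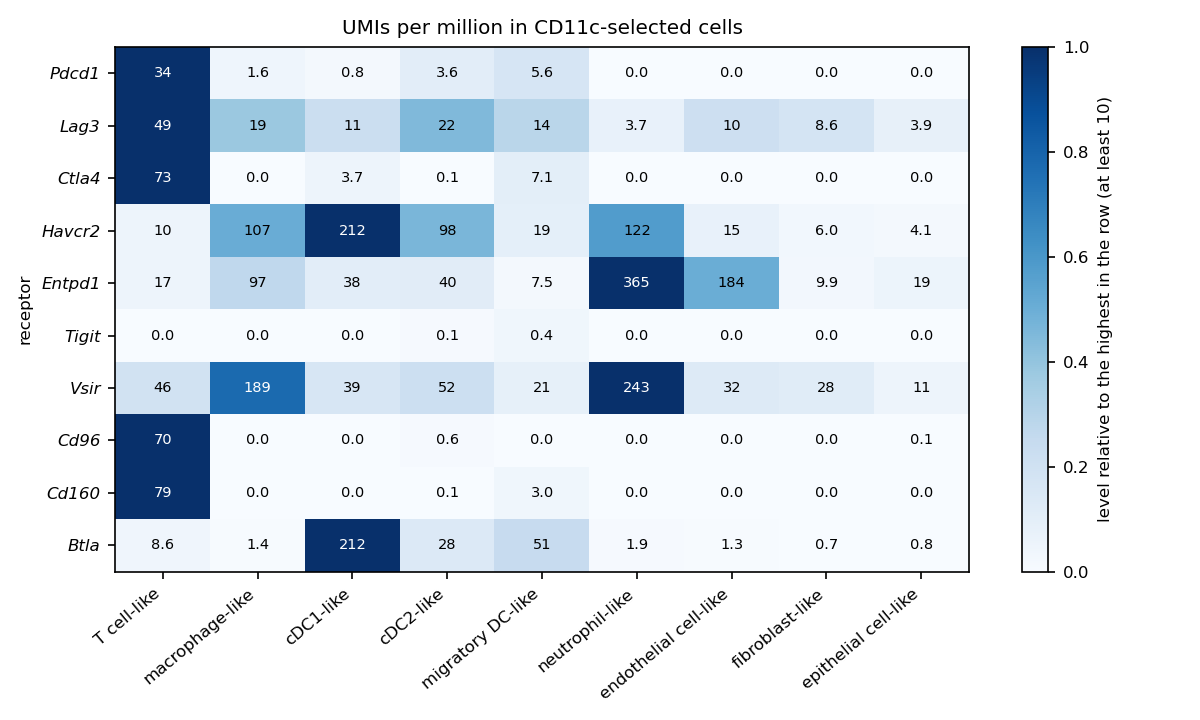
Level of each receptor gene, in CPM (numbers), in the named cell types of the CD11c-selected matrix. Shading is relative to the highest value in the row, or to 10 where that is higher. *Btla* is 212 in cDC1-like and 1.38 in macrophage-like cells, *Entpd1* peaks at 365 in neutrophil-like cells, and *Ctla4*, *Cd160*, and *Cd96* stand in the T cell-like cells.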

How the data were processed

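The authors deposited whole UMI counts per gene and cell, unnormalized, in 1 matrix for the CD4/CD8-selected cells and 1 for the CD11c-selected cells, and the submitters' processing notes name Cell Ranger 3.0.2 and mm10. No sample could be tied to a cell, so no genotype comparison was run, and 0 columns of per-sample values were left unmapped. The 10 genes, the gene lists and the rules were chosen with earlier results of these data known.

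Cells with at least 200 genes were kept (Python 3.11.15, numpy 2.4.6, scipy 1.17.1). Levels are summed UMIs per 1000000 (CPM) with exact Poisson 95% intervals, shares have Clopper-Pearson intervals, and a count of 0 allows 3 counts. Folds used summed CPM with 1 UMI added, for genes of at least 5 CPM over both classes, called at 2-fold. Runs with fewer than 20 cells of a class gave no run value. For co-detection each cell was thinned once to 2000 UMIs. Barcode runs were read from the alphabetical order of barcodes and are linked to no sample here. The authors' replicates are 3 per genotype and cell type, and counting intervals do not measure their spread.

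Clusters were made with scanpy 1.11.5 and leidenalg 0.10.2 (2000 variable genes, 30 components, 15 neighbors, resolution 1) without the receptor genes, and named from marker lists by a scoring rule set after the clusters were seen. No doublet caller was run, and cells with genes of another cell type were left out as an alternative instead. Genes were named by rule: all 10 receptors, the 3 highest and 3 lowest of each list, and the 3 genes nearest to each receptor by odds ratio, for which an upper limit of 90% detection was added after seeing the data. Gene positions are those of GENCODE M21 and promoters those of RefSeq. The calculations were tested on simulated data. Alternatives were other filters, gates, thinning depths, seeds, resolutions, thresholds and each barcode run left out.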

Additional observations from a re-analysis of the deposited data

Results flagged for a closer look

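Levels in the 6 barcode runs were screened for a run far from the others by Dixon's criterion for 6 values in 34 combinations of gene and cell class with at least 50 UMIs, and 3 passed, where chance gives about 1 in 20. *Vsir* in CD8 cells stood at 95.6 CPM in run 3 and 51.2 to 66.5 CPM in the others, and that run also held most cells of cluster 4, where *Vsir* was highest. *Lag3* in conventional CD4 cells stood at 64.1 CPM in run 2 and 11.3 to 29.9 CPM in the others. *Entpd1* in the same cells stood at 105 CPM in run 2 and 10.8 to 42.8 CPM in the others. Run 2 held 27 conventional CD4 cells, which is few for either value. Conventional CD4 cells also carried macrophage RNA, and over all runs their *Entpd1* was at 11.6 CPM without the cells that had macrophage UMIs. The part of that RNA in the run 2 values was not tested.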

How the results depend on the processing

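No paired analysis was possible because the matrices do not tie cells to samples, so replicate numbers cannot be matched. Depth set the share of thinned CD8 cells with at least 2 receptors, which was 29.7% at 2000 UMIs, 13.1% at 1000 and 41.2% at 3000, 28.7% without cells that had macrophage or epithelial genes and the 5% with most UMIs, and 26.7% to 32.7% with 1 run left out. Of the 10 genes, 5 were higher in CD8 than in conventional CD4 cells, and 8 were without those same cells, in T cell-like clusters only (an alternative chosen after seeing the data), and as a mean over cells, against 5 to 6 with 1 run left out. Pairs above an odds ratio of 1 numbered 32, and 28 to 33 under all alternatives. Over alternatives other than leaving out a run, 388 recomputed pair odds ratios stayed within their spread over runs and 15 moved further, and *Tigit* with *Entpd1* (2.15) changed side, to 0.44 at 1000 UMIs and 0.90 with another seed. The 773 genes at least 2-fold apart between CD8 and conventional CD4 cells were 1725 at 1.5-fold, 387 at 3-fold, 310 from 20 CPM and 8031 with no filter, each by construction of the threshold. The 4 receptors of at least 10 CPM in macrophage-like cells were 4 under every alternative run.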

Other observations

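Plasmacytoid DC-like cells of the T cell matrix (113 cells, with *Siglech* at 1596 CPM) held *Lag3* at 140 CPM (CI, 120 to 163), 129 and 107 CPM in the 2 runs with at least 20 of them, against 45.7 CPM in CD8 cells. Their *Cd3g* was 250 CPM against 1228 CPM in CD8 cells, so T cell RNA was present, and its part in the *Lag3* level was not tested. *Vsir* was at 69.4 CPM and *Pdcd1* at 46.5 CPM in them. In the CD11c matrix, an unnamed cluster of 136 shallow cells (median, 1107 UMIs) led by *Plac8*, *Ighm*, and *Tcf4* held *Lag3* at 165 CPM on 58 UMIs, at 207 CPM in run 2 but 0 in run 3 and 9.08 CPM in run 6.

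Macrophage-like cells of the T cell matrix (1038 cells) held *Vsir* at 177 CPM, *Havcr2* at 86.1 CPM, and *Entpd1* at 62.0 CPM, against 189, 107, and 97.5 CPM in those of the CD11c matrix. *Entpd1* was at 41.9 CPM in run 3 and 81.3 to 144 CPM in the others, and at 96.0 CPM without run 3. At the ratio to complement C1q genes found in those cells, the C1q UMIs in conventional CD4 cells (3089 CPM, against 12716 CPM in the macrophage-like cells) correspond to 78.3% of their *Havcr2*, 55.1% of their *Vsir*, and 50.2% of their *Entpd1*, but 14.1% of their *Lag3* and 2.29% of their *Pdcd1*. With 1 run left out, an alternative chosen after seeing the data, the share ranged from 57.1% (without run 3) to 86.7% for *Havcr2*, 35.1% (without run 3) to 87.1% (without run 1) for *Vsir*, 44.0% to 62.0% for *Entpd1*, 9.85% to 17.4% for *Lag3*, and 0.974% (without run 2) to 3.48% (without run 4) for *Pdcd1*. In CD8 cells (177 CPM of C1q genes) the same ratio gives 11.2% of *Havcr2*, 3.74% of *Vsir*, 0.351% of *Lag3*, and 0.0514% of *Pdcd1*, and without run 3 it gives 4.62% of *Havcr2* and 1.296% of *Vsir*, and without run 2 0.0298% of *Pdcd1*.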
